A study of Mus musculus with 6 samples.

Results

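The oligoadenylate synthetase (OAS) family comprised 7 of the 22377 genes in the count table, namely Oas1a, Oas1c, Oas1g, Oas2, Oas3, Oasl1 and Oasl2. The family was chosen by its difference between the libraries labelled ko and wt in these same 6 libraries, so its levels in the 2 groups are described here and carry no test. All 7 members were among the 13884 genes that passed the filter on low counts.

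RNA sequencing was performed on macrophages from subcutaneous LLC tumors, which grow from a mouse Lewis lung carcinoma cell line, to look for genes that depend on Npm1. The study's methods describe the sorting of CD45+ CD11b+ F4/80+ cells from hosts of the genotypes Npm1+/+ and Npm1+/-, young adults of both sexes, whereas the sample labels name tumor tissue as the source. The 3 libraries titled wt carry wt as their treatment, and the 3 libraries titled ko carry knockdown. The genotype is that of the host mouse, not of the injected tumor cells. The strain of the mice is not given in the sources used here.

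OAS enzymes bind double-stranded RNA, a product of viral infection, and join ATP into short chains of adenylate with 2′-5′ links. These chains act as a second messenger of the antiviral response. The genes are induced by interferons through transcription factors that include Stat2 and Irf9 and act at a DNA element called the interferon-stimulated response element (ISRE), and macrophages are among the cells known to express them.

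The members lie on chromosome 5 of the mouse genome (GRCm38, GENCODE annotation). Oas2 (120730333-120749853), Oas3 (120753098-120777661), Oas1c (120800194-120812514), Oas1g (120876142-120887613) and Oas1a (120896256-120907521) are all on the minus strand and span 177 kb. Oasl2 (114896936-114912234) and Oasl1 (114923240-114937915) are on the plus strand, span 41.0 kb, and are separated from the others by 5792 kb. Oas1a and Oas1g are near copies, with 96.2% of the shorter transcript identical, and 57.6% of the 50-base windows of the Oas1a transcript also occur in another gene, all of these in Oas1g. Reads could therefore be divided between Oas1a and Oas1g by the authors' counting. The share of windows that also occur in another gene was 54.7% for Oas1g, nearly all of these in Oas1a. For Oas1c this share was 10.7%, for Oas3 0.471%, and for Oas2, Oasl1 and Oasl2 it was 0.

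Promoter sequences of 6 of the 7 members (RefSeq, GRCm38.p6) reached from 250 bases before to 50 bases after the annotated start, and Oas2 had no entry. The core of the ISRE, a pair of GAAA separated by any 2 bases, was searched on both strands, with overlapping matches allowed. It was present in 4 of the 6 promoters, against 3.44% of all 32851 promoters of the same length. The windows below are shown because they hold the matches, in capitals, each written 5′ to 3′ on the strand of its gene (minus), at chr5:120907523-120907552 for Oas1a, chr5:120887609-120887638 for Oas1g, chr5:120812606-120812635 for Oas1c and chr5:120777715-120777744 for Oas3.
Oas1a: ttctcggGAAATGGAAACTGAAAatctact
Oas1g: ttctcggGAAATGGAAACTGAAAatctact
Oas1c: atgggacTTTCAGTTTCCATTTCccgggaa
Oas3: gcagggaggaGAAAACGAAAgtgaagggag

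The windows of Oas1a and Oas1g were identical, and each held 2 overlapping matches, at positions -20 to -5 and -18 to -3 from the annotated start. Only 0.225% of all promoters held 2 or more matches. In Oas1c the same 16-base motif pair stood on the opposite strand, where it reads ttcccggGAAATGGAAACTGAAAgtcccat, at positions -114 to -99. There it lies 7 to 22 bases before the annotated start of the divergent gene Oas1b. Oas3 held a single match of other sequence, at -75 to -66. No match was found in these windows of Oasl1 and Oasl2, which says only that these letters are not there. With 1 other base allowed, all 6 promoters had a match, as did 35.4% of all promoters. The motif TTCNNNGAA, which Stat3 dimers bind, was present once in the Oas1a promoter, starting at position -98, in none of the other 5 members, and in 8.30% of all promoters. A motif match is a description of sequence and does not show that a factor was bound.

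Total counts were between 36550775 and 38147320 per library, and levels are given as CPM, counts scaled to the size of the library, with TMM factors. Npm1, the targeted gene, measured 142, 380.2 and 381 CPM in wt replicates 1, 2 and 3, and 441, 499 and 343 CPM in the libraries labelled ko. The estimated log2 fold change was 0.51 (SE 0.36, edgeR adjusted p = 0.436), and 0.16 without wt replicate 1, so that the estimate was higher, not lower, in the libraries labelled ko either way, although replicate 3 of these, at 343 CPM, stood below wt replicates 2 and 3. The library labelled wt replicate 1 stood apart, at -108 on a first principal component that held 68.0% of the variance, with the other 5 between -4.54 and 52.0. Values that turned sign or moved by over 1.5 times without it are therefore given with and without it. Defining markers of the sorted cells were present in every library, with Ptprc at 957 to 1392 CPM in wt and 927 to 1189 CPM in the libraries labelled ko, and Adgre1, which encodes F4/80, at 201 to 302 and 127 to 224 CPM. Itgam, which encodes CD11b, measured 2876, 2974 and 2707 CPM in wt and 1944, 1491 and 2659 CPM in the libraries labelled ko, all 3 below the wt libraries.

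The OAS family fell into members that were lower in every library labelled ko and members whose groups overlapped. Oas1a, Oas1g, Oas2, Oas3 and Oasl2 had all 3 libraries labelled ko below all 3 wt libraries, with wt levels 1.55 to 2.22 times those of the libraries labelled ko. Oas1c and Oasl1 overlapped between the groups, and of the 7 members only Oasl1 had a higher estimate in the libraries labelled ko. Among all genes tested, 12.6% had every library labelled ko below every wt library and 13.3% had every one above. The members were selected on this contrast, so nothing is read from their 5 of 7. The edgeR quasi-likelihood test called 0% of the 13884 genes at an adjusted p of 0.05, although 2112 genes had an unadjusted p under 0.05, and DESeq2 called 108 genes, which is 1.23% of those to which it gave an adjusted p.

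**Figure D1:**
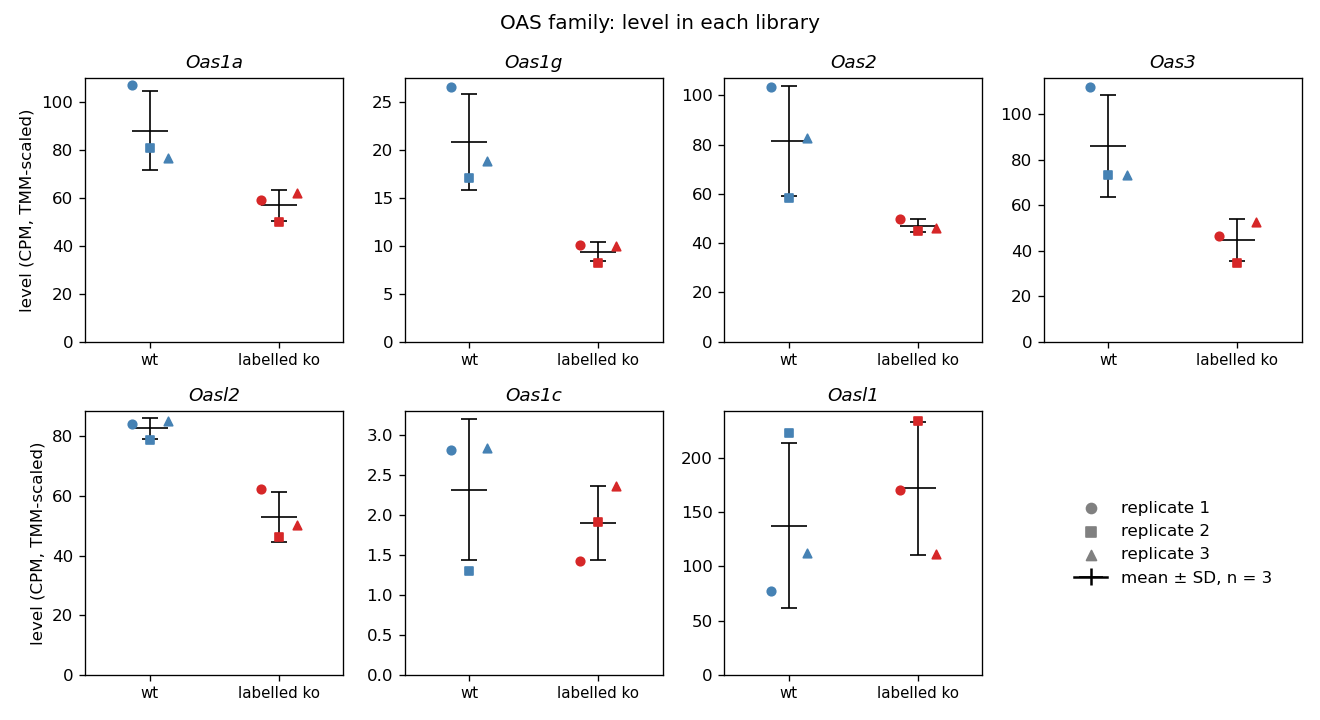
Level of each OAS member (TMM-scaled CPM, vertical axes from 0) in the 3 wt libraries and the 3 libraries labelled ko. Points are libraries, with the replicate number shown by shape, and bars are the mean ± SD. The groups are separate for Oas1a, Oas1g, Oas2, Oas3 and Oasl2 and overlap for Oas1c and Oasl1.

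Oas1a and Oas1g encode small synthetases with catalytic activity. Oas1a measured 107, 80.8 and 76.8 CPM in wt replicates 1, 2 and 3, and 59.0, 49.8 and 62.3 CPM in the libraries labelled ko. The highest library labelled ko stood below the lowest wt library, and the means were 88.3 ± 16.5 and 57.1 ± 6.46 CPM (SD, n = 3 each), a log2 fold change of -0.63 (SE 0.16). Oas1g measured 26.6, 17.1 and 18.9 CPM in the wt libraries and 10.0, 8.23 and 9.96 CPM in the libraries labelled ko. This was the member with the largest fold between the groups, 20.9 ± 5.03 against 9.41 ± 1.02 CPM (log2 fold change -1.15, SE 0.21). Both genes were highest in wt replicate 1, and without it the log2 fold changes were -0.47 for Oas1a and -0.94 for Oas1g.

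The ratio of Oas1a to Oas1g differed between the groups as well. Counts of Oas1a were 4.03, 4.72 and 4.07 times those of Oas1g in the wt libraries, and 5.88, 6.05 and 6.26 times in the libraries labelled ko. The 2 sets of ratios did not overlap, but both genes were selected on this contrast, so nothing is read from this. How reads from the identical stretches were assigned is not given in the sources used here, and its part in this ratio was not tested. The separate estimates of Oas1a and Oas1g, among them the -1.15 of Oas1g, may depend on that assignment as well. With the counts of Oas1a and Oas1g summed, the log2 fold change was -0.72, and the member median was -0.68.

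Oas2 encodes the medium-sized synthetase, with a pair of OAS units in 1 chain. Its level was 103, 58.5 and 82.7 CPM in the wt libraries and 49.9, 45.1 and 46.1 CPM in the libraries labelled ko. The wt libraries were spread widely and the libraries labelled ko closely, at 81.5 ± 22.4 against 47.0 ± 2.55 CPM. The log2 fold change was -0.79 (SE 0.20), and -0.59 without wt replicate 1. The distance between the groups was small beside the spread of wt, since wt replicate 2, at 58.5 CPM, stood near the highest library labelled ko, at 49.9 CPM.

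Oas3 encodes the large synthetase, which responds best to long double-stranded RNA. It measured 112, 73.1 and 73.1 CPM in the wt libraries and 46.6, 34.7 and 52.8 CPM in the libraries labelled ko. Means were 86.0 ± 22.4 and 44.7 ± 9.19 CPM, and the log2 fold change was -0.94 (SE 0.22), or -0.71 without wt replicate 1. That library was again the highest, while the other 2 wt libraries were level with each other and above all libraries labelled ko.

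Oasl2 encodes an active synthetase that also carries ubiquitin-like domains. Its level was 84.3, 78.7 and 85.3 CPM in the wt libraries and 62.4, 46.1 and 50.2 CPM in the libraries labelled ko. The wt libraries were close together, with a highest-to-lowest ratio of 1.08, and only 3.93% of all genes tested had a smaller ratio among the wt libraries. Means were 82.8 ± 3.54 and 52.9 ± 8.48 CPM. The log2 fold change of -0.65 (SE 0.14) was -0.64 without wt replicate 1, so that Oasl2 depended least on that library of the 5 members whose groups were separate.

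Oas1c is a relative of Oas1a thought to lack synthetase activity, and it was the lowest of the 7 members. Its counts were 100, 46 and 106 in the wt libraries and 56, 80 and 86 in the libraries labelled ko, or 1.30 to 2.83 and 1.42 to 2.35 CPM. The groups overlapped, and the log2 fold change was -0.29 with an SE of 0.40, or -0.13 without wt replicate 1. An antisense gene, Gm43069, covers 5430 bases of the Oas1c locus. Whether counting used strand is not given in the sources used here. Of the other genes of the Oas1 group, Oas1d had 5 counts in the library labelled ko replicate 2 and 0 in the other 5 libraries, Oas1e had 1 count in wt replicate 2 and 0 elsewhere, and both were at or near the floor of 3 counts that a count of 0 allows, 0.0716 to 0.0846 CPM. Oas1b, Oas1f and Oas1h were not found under these symbols in the count table.

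Oasl1 encodes a protein with ubiquitin-like domains and no synthetase activity, known for holding back translation of Irf7. Its level was 77.0, 223 and 113 CPM in wt replicates 1, 2 and 3, and 171, 234 and 112 CPM in the libraries labelled ko. It was lowest in wt replicate 1, the library in which Oas1a, Oas1g, Oas2 and Oas3 were highest. It was highest in the library labelled ko replicate 2, where Oas1a, Oas1g, Oas2, Oas3 and Oasl2 were lowest. Oasl1 was not alone in this, since Npm1 was also lowest in wt replicate 1 and highest in the library labelled ko replicate 2. The means of Oasl1, 137 ± 76.0 and 172 ± 61.4 CPM, lay within each other's spread, and its log2 fold change of 0.33 (SE 0.41) was 0.035 without wt replicate 1 and 0.030 without the library labelled ko replicate 2. The annotation places Gm13822 on the opposite strand, where it overlaps Oasl1 by 38 bases, and it had 43 to 79 counts per library against 2738 to 9823 for Oasl1.

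**Figure D2:**
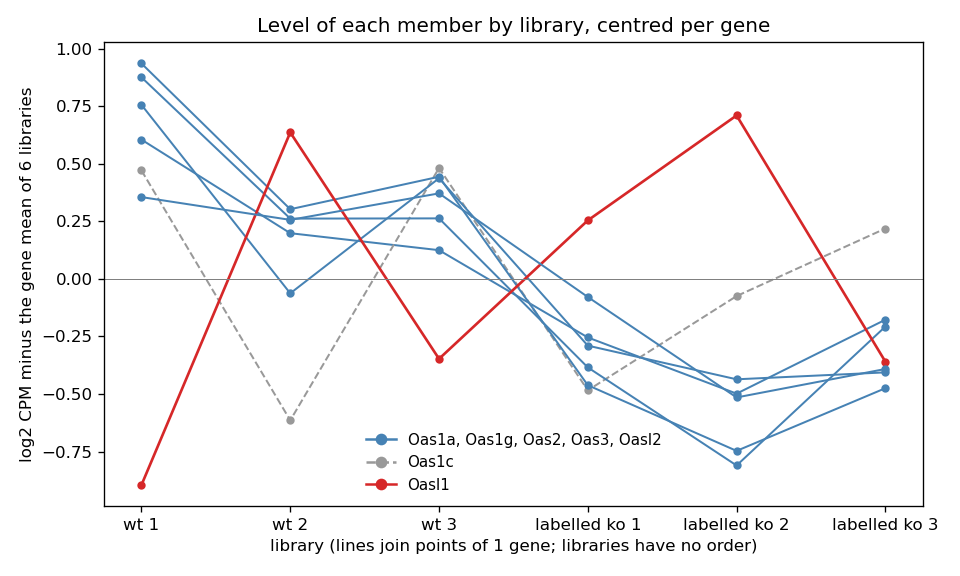
Level of each member in each library as log2 CPM minus the gene's mean over the 6 libraries (vertical axis). The blue lines of 5 members are lower in the libraries labelled ko, while the red line of Oasl1 is lowest in wt replicate 1 and highest in the library labelled ko replicate 2.

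The profile across libraries was compared between members as the root mean square (RMS) difference of centred log2 CPM from the mean of the other 6 members, where 0 means the same profile. It was 0.133 for Oas1a, 0.159 for Oasl2, 0.217 for Oas2, 0.319 for Oas3, 0.359 for Oas1g, 0.471 for Oas1c and 0.924 for Oasl1. Oasl1 was thus the member least like the rest. Among the 10 genes outside the family with the smallest RMS difference from the mean profile of the 7 members over the 6 libraries were Tgfbrap1 (0.0639), Palld (0.0679), Timm10b (0.0726), Icosl (0.0727), Cgrrf1 (0.0743), Tbcel (0.0743), Dapk3 (0.0757), Atxn1l (0.0762) and Rabggta (0.0765). The order depended on the measure, since by Pearson correlation only Cgrrf1 of the 10 stayed among the first 10. For Oasl1 alone, a comparison added after its values were seen, the nearest genes were Cfap298 (0.133), Rabl2 (0.150), Hyal2 (0.157), Dact3 (0.157) and Jcad (0.163).

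Levels can be compared between genes only per length, for which the deposited FPKM values were used. Oasl1 had the highest level, 69.7 ± 32.7 FPKM (SD over the 6 libraries), followed by Oas1a at 36.8 ± 8.16, Oasl2 at 21.4 ± 4.51, Oas2 at 15.6 ± 5.01, Oas3 at 13.0 ± 4.71, Oas1g at 7.38 ± 3.06 and Oas1c at 0.905 ± 0.269 FPKM. The ranges of Oas1a and Oasl2 did not overlap, nor did those of Oas1g and Oas1c. The other neighbours in this order overlapped in range, although Oasl2 exceeded Oas2, and Oas3 exceeded Oas1g, within each of the 6 libraries. Oasl1 exceeded Oas1a in 5 of the 6 libraries, the exception being wt replicate 1, at 31.7 against 51.3 FPKM.

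Because Oasl1 was both the most abundant and the most variable member, it set much of the family total. Summed over the 7 members, the level was 166, 189.7 and 159 FPKM in the wt libraries and 161, 191 and 121 FPKM in the libraries labelled ko, and the groups overlapped. Unlike the CPM levels, FPKM values carry no TMM factors. These factors were 0.933 to 0.983 in wt and 0.969 to 1.15 in the libraries labelled ko. Without Oasl1 the sums were 135, 97.9 and 111 FPKM against 81.5, 72.6 and 73.6 FPKM, and the groups were separate. This separation was given in advance, because Oas1a, Oas1g, Oas2, Oas3 and Oasl2 make up nearly all of these sums. Each of them was already separate and was selected on this contrast. Oasl1 made up 19.1%, 48.4% and 30.7% of the total in the wt libraries and 49.3%, 62.0% and 39.4% in the libraries labelled ko.

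**Figure D3:**
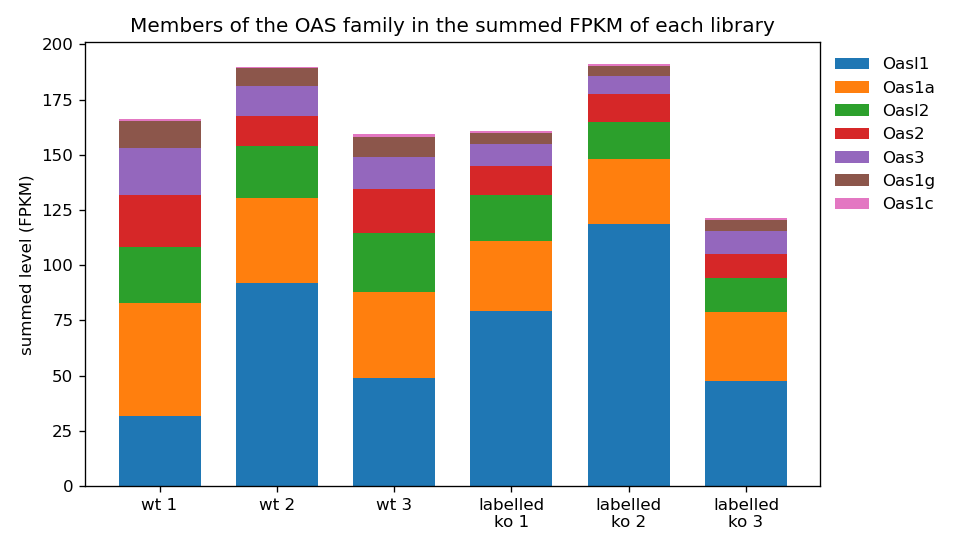
Summed FPKM of the OAS family in each library (vertical axis from 0), divided by member. Oasl1, at the base of each bar, ranges from 31.7 to 119 FPKM, and the other members together are 97.9 to 135 FPKM in wt and 72.6 to 81.5 FPKM in the libraries labelled ko.

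The genes that act with the OAS family were taken from 3 lists and tested in the fit over all genes. All 3 lists were chosen with earlier results of these data known, so nothing is read from counts over a list. The lists are not separate, since Dhx58, Ifih1 and Usp18 are among the genes that also stand in another list. Pde12, which degrades the 2′-5′-linked chains, had a log2 fold change of 0.19 (SE 0.13). Abce1, which recycles ribosomes, had the highest estimate of the nucleic acid sensing list, 0.62 (SE 0.22), or 0.40 without wt replicate 1, with 53.1, 85.5 and 97.2 CPM in wt and 132, 125 and 106 CPM in the libraries labelled ko. Neither passed the test (edgeR adjusted p = 0.328 for Abce1 and 0.428 for Pde12).

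Of the 23 genes of the nucleic acid sensing list, edgeR called 0, and 8 had an unadjusted p under 0.05, beside 2112 of all 13884 genes. DESeq2 called 2, Dhx58 and Tlr9, both lower in the libraries labelled ko. The estimate was lower for 15 genes and higher for 8, with a median log2 fold change of -0.18 against 0.022 for all genes tested. Tlr9, a receptor for DNA in endosomes, had -0.96 (SE 0.24), Dhx58, a regulator of RNA sensing, -0.72 (SE 0.15), and Tlr3, a receptor for double-stranded RNA, -0.62 (SE 0.36). Among other sensors of double-stranded RNA, Rigi had -0.30 (SE 0.11), and -0.32 without wt replicate 1, with every library labelled ko below every wt library. Ifih1 had 0.07 (SE 0.27) and Eif2ak2, the kinase PKR, 0.18 (SE 0.32), and both turned sign without wt replicate 1, to -0.17 and -0.11. Aim2, a DNA sensor, had 0.24 (SE 0.20).

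Interferon signalling genes act upstream of the OAS genes. Of 25 genes tested, edgeR called 0, and 12 had an unadjusted p under 0.05, beside 2112 of all 13884 genes. DESeq2 called 2, Usp18 and Il10rb, both lower in the libraries labelled ko. The estimate was lower for 20 and higher for 5, with a median of -0.44, which was -0.26 without wt replicate 1. Log2 fold changes were -0.44 for Stat2 (SE 0.21) and -0.26 for Irf9 (SE 0.17), which act together at the ISRE. Without wt replicate 1 they were -0.18 and -0.06. Irf7, which amplifies interferon production, had -0.61 (SE 0.16), and Stat3 had -0.44 (SE 0.16), or -0.26 without wt replicate 1. The receptor chains Ifnar1 and Ifnar2 had -0.21 (SE 0.16) and -0.26 (SE 0.14). The lowest estimates were those of Ifnlr1, a receptor chain under 1 CPM in every library (-1.04, SE 0.47), the phosphatase Ptpn6 (-0.94, SE 0.29) and Usp18, a brake on the interferon receptor (-0.83, SE 0.18).

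The interferons Ifnb1 and Ifng had higher estimates in the libraries labelled ko. Ifnb1 measured 9.22, 28.1 and 16.1 CPM in the wt libraries and 27.1, 32.6 and 28.8 CPM in the libraries labelled ko (log2 fold change 0.73, SE 0.36, edgeR adjusted p = 0.341, and 0.42 without wt replicate 1). Like Oasl1, Ifnb1 was lowest in wt replicate 1 and highest in the library labelled ko replicate 2. Ifng measured 1.10, 1.04 and 4.41 CPM against 6.74, 19.2 and 3.58 CPM (log2 fold change 2.17, SE 0.78, edgeR adjusted p = 0.328). Beside it, the summed level of the T or NK cell markers was 50.7, 54.0 and 134 CPM in the wt libraries and 126, 309.6 and 108 CPM in the libraries labelled ko, highest in the same library as Ifng, and its part in the Ifng values was not tested. Irf1, a factor induced by interferons, had a log2 fold change of 0.54 (SE 0.14). None of these passed the test.

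Other interferon-stimulated genes were described in the same way. All 37 genes of the 40 on the list that were in the table were tested. Of these, edgeR called 0, and 16 had an unadjusted p under 0.05, beside 2112 of all 13884 genes. DESeq2 called 6, namely Dhx58, Helz2, Lgals3bp, Rnf213, Sp100 and Usp18, all lower in the libraries labelled ko. The estimate was lower for 32 genes and higher for 5, and 19 had every library labelled ko below every wt library while 0 had every one above, beside 12.6% and 13.3% of all genes. This list was chosen with earlier results of these data known, so nothing is read from these counts. The median log2 fold change was -0.35, or -0.38 without wt replicate 1. The median of the OAS members, which were selected on these values, was -0.65, or -0.59 without that library. The lowest were Usp18, Lgals3bp, a secreted glycoprotein (-0.79, SE 0.15), and Rnf213, a ubiquitin ligase (-0.74, SE 0.14), and the highest were Ifi207 (0.20, SE 0.34), Ifi27 (0.11, SE 0.13) and Ifih1. Without wt replicate 1, Ifi207 and Ifih1 turned sign, to -0.14 and -0.17, and Ifi27 was 0.04. Like Oasl1, Ifi207, Ifi27 and Ifih1 were among the list genes lowest in wt replicate 1, while Usp18, Lgals3bp and Rnf213 were among those highest in it. The ISRE core was present in 14 of the 29 list genes with a promoter entry (48.3%). A gene was counted here if any of its promoters held a match, whereas the 3.44% given above is a share of single promoters, so these shares differ in unit.

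**Figure D4:**
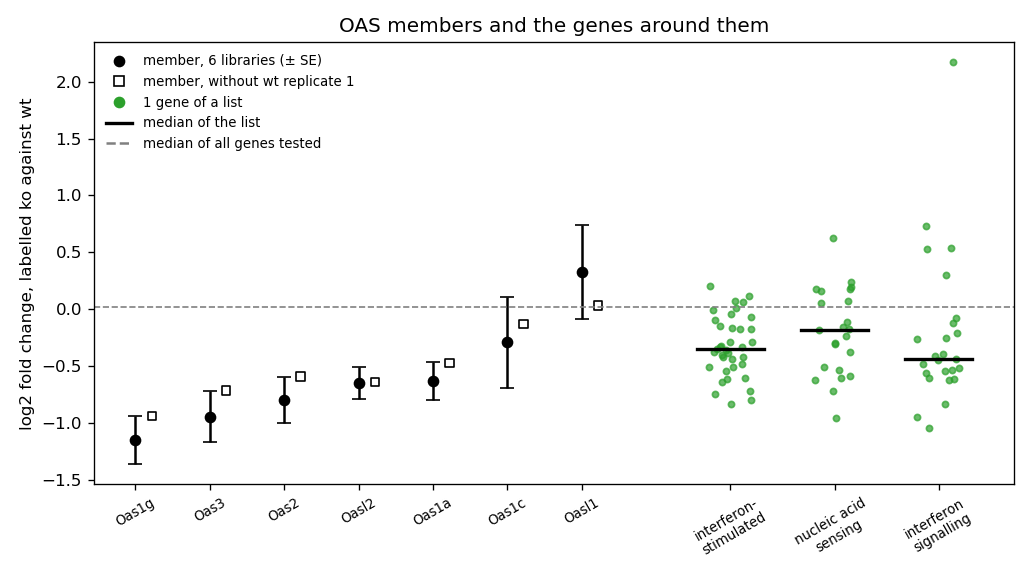
Log2 fold change between the libraries labelled ko and wt (vertical axis) of the 7 OAS members (black points, bars ± SE, open squares without wt replicate 1) and of the genes of the 3 lists (green points, black line at the median, dashed line at the median of all genes tested, 0.022). Oas1g is lowest at -1.15 and Oasl1 is the only member above 0. The medians of the lists are -0.35, -0.18 and -0.44.

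Summed levels of macrophage and of neutrophil markers were lower in every library labelled ko than in every wt library, as were those 5 OAS members, while the sums of the other cell types overlapped. Summed over the 12 macrophage markers, the level was 6759 to 7844 CPM in wt and 3775 to 6330 CPM in the libraries labelled ko. For 7 neutrophil markers it was 1888 to 2092 against 836 to 1606 CPM, for the 10 T or NK cell markers in the table (of 12) 50.7 to 134 against 108 to 309.6 CPM, for 7 fibroblast markers 22.7 to 471 against 341 to 681 CPM, and for 5 epithelial markers 35.2 to 137 against 129 to 191 CPM. The fibroblast and the epithelial sums were lowest in wt replicate 1, where Oasl1 was also lowest, with the other wt libraries at 272 and 471 CPM for fibroblast and 79.9 and 137 CPM for epithelial markers. The sums of 5 B cell markers were 6.26 to 36.1 against 11.8 to 58.0 CPM, those of 9 dendritic cell markers 397 to 567 against 420.3 to 496 CPM, and those of 4 endothelial markers 29.4 to 36.5 against 27.5 to 30.2 CPM. No marker was at 0 in every library. Fewer cells of a type and less RNA per cell cannot be told apart in such bulk samples, and the part of the cell mixture in the OAS levels was not tested. Scaling to the macrophage markers was added after the data were seen. It adds nearly the same amount to the log2 fold change of every gene. The place of a member against the median of all genes could therefore hardly change, and nothing is read from it. That median moved to 0.63. Estimates became -0.03 for Oas1a (SE 0.21), -0.17 for Oas2 (SE 0.26) and -0.04 for Oasl2 (SE 0.24). They were -0.54 for Oas1g (SE 0.30), -0.37 for Oas3 (SE 0.22), 0.30 for Oas1c (SE 0.49) and 1.01 for Oasl1 (SE 0.47).

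The labels number the libraries of a group as separate samples without tying them to animals, and a figure legend of the study gives fewer mice for a heatmap of these data than there are libraries in a group. Libraries may therefore share an animal, in which case the SEs and p-values are too small for a comparison of mice.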

How the data were processed

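RNA of 6 libraries, 3 labelled wt and 3 labelled ko, was sequenced. The authors deposited raw counts for each gene. They also deposited FPKM values, which were recovered from the counts, a fixed gene length and the library total in all 15063 genes checked. The submitters' processing notes name mm10 (GRCm38); the aligner, the counting tool and the use of strand are not given in the sources used here. The study's methods describe sorted macrophages and a low-input library kit, and the labels tumor tissue, TRIzol and small RNA libraries.

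edgeR 4.0.16 in R 4.3.3 (filterByExpr, TMM, quasi-likelihood test, Benjamini-Hochberg over 13884 genes, threshold 0.05) was fitted to the deposited counts. SEs were derived from the F statistic and the estimate. Alternatives used DESeq2 1.42.0, limma 3.58.1 on log2(FPKM + 1) or log2(FPKM + 0.1), other scalings and filters, a replicate block, Oas1a and Oas1g summed, and each library left out.

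The members and lists were chosen with earlier results of these data known. Named genes are the members, Npm1, preset signalling and sensing genes, the 3 highest and 3 lowest of each list, and the 10 nearest profiles. Il10rb, Helz2, Sp100 and the genes nearest Oasl1 were named after their values were seen. Some genes under this rule are not reported here.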

Additional observations from a re-analysis of the deposited data

How the results depend on the processing

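Over 99 planned values for single members or for Oas1a and Oas1g summed (other scalings, filters, tools, the replicate block and each library left out), 0 changed sign. Beyond 1 SD, 1 moved, Oas1g at -0.85 with limma on log2(FPKM + 1). This SD was each gene's own spread of log2 CPM within the groups. For Oasl1 it was 0.67 and for Oas1c 0.51, wider than the size of their estimates. The member median moved beyond its own SD of 0.096 in both limma fits and without the library labelled ko replicate 1. The number of genes called was 0 in every edgeR and limma fit and 108 with DESeq2, and the cause was not tested. Of the interferon-stimulated, nucleic acid sensing and interferon signalling lists, DESeq2 called 6, 2 and 2 genes. Dhx58 and Usp18 are each counted in 2 of these lists. Genes with an unadjusted p under 0.05 were 669 to 2466 without a labelled ko replicate, 2914 with no filter on low counts, and 5483 with scaling to the macrophage markers. The member median was -0.48 and that of the interferon-stimulated list -0.15 with limma on log2(FPKM + 1), and -0.51 and -0.19 on log2(FPKM + 0.1), where the median of all genes was 0.09 and 0.16. With each library left out, the member median was -0.78 to -0.56, the interferon-stimulated median -0.41 to -0.32, and called genes 0 throughout. Oasl1 ranged from 0.030 to 0.86 (without wt replicate 2), so its size rests on single libraries, and Oas1c was -0.58 without wt replicate 2 and -0.12 without ko replicate 1. Scaling to the macrophage markers, added after the data were seen, gave a member median of -0.045, Oas1c 0.30 and the interferon-stimulated list 0.27, beside 0.63 for all genes. By Pearson correlation 1 of the 10 nearest genes was shared. The replicate block gave 0 called genes (1606 at an unadjusted p under 0.05), a member median of -0.66 and no change of call. The correlations of same-numbered deviations were -0.24, 0.060 and -0.34. With 3 libraries in each group, these values cannot show whether libraries of the same number share more than that number. Low counts limit Oas1c (46 to 106 per library), and Oas1d and Oas1e were at or near the floor of 3.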
